A study of Zea mays with 6 samples.

Results

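Graminaceous plants take up Fe by Strategy II. Their roots release phytosiderophores, small molecules of the mugineic acid family that bind Fe(III) in the soil, and then import the intact complex. Nicotianamine synthase (NAS) makes nicotianamine from S-adenosyl-methionine, nicotianamine aminotransferase (NAAT) and deoxymugineic acid synthase (DMAS) convert it into 2'-deoxymugineic acid, TOM1 exports that product and yellow stripe 1 (YS1) carries the Fe-phytosiderophore complex into the root cell. In grasses the pathway is known for its high expression in roots short of Fe.

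The expression of 5 genes of this pathway was followed through an array experiment on maize roots, and each was found as the rows whose transcript name begins with its gene model: NAS (GRMZM2G050108) and nas2 (GRMZM2G030036) for nicotianamine synthesis, DMAS (GRMZM2G060952), TOM1 (GRMZM2G063306) and YS1 (GRMZM2G156599). They are 5 of 39219 genes and 7 of 59756 transcripts on the array, since DMAS and TOM1 have 2 transcripts each, and 19 probes report on them. Probe sequences were not used here, so whether these probes also bind transcripts of near-identical gene copies was not tested.

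The samples were roots of 19-day-old plants of the maize hybrid PR33T56, and every sample pooled 6 plants. All plants, controls included, were kept in Fe-free solution until day 12, and for the last 7 days Fe-deficient plants stayed without Fe while Fe-sufficient plants received 100 µM Fe-EDTA. The Fe-sufficient group is therefore a group resupplied after a first Fe-free period. Each group had 3 samples, and each sample was hybridized to 1 single-colour array. The study describes 3 independent cultivations, with plants pooled by treatment, so samples of both groups may share a cultivation. The sample titles carry a number but name no cultivation. All 6 arrays lay on 1 slide, Fe-sufficient at positions 7 to 9 and Fe-deficient at positions 10 to 12, so position and group cannot be told apart.

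Levels are log2 intensities after normalization by the authors, summarised over the probes of a transcript, and they may be compared between arrays for a gene but not between genes. A probe counted as above background on an array when its intensity exceeded that of 95% of the random-sequence probes there. Between 58.37% and 66.52% of probes were above background, and the median correlation of an array with the others ranged from 0.958 to 0.974. Of the root formation list (2 genes, rtcs and rth3) both genes were above background on all arrays, as were 22 of 26 genes of the xylem list and 17 of 26 of the photosynthetic list. The summed level of the photosynthetic list was 15.57 to 15.85 log2 on Fe-deficient arrays and 15.26 to 15.54 on Fe-sufficient ones, so these ranges did not overlap. The median deviation over its genes did overlap, at -0.01 to 0.12 on Fe-deficient arrays and -0.17 to 0.03 on Fe-sufficient ones. Fe-deficient 2 had the lowest sums of the root formation list (12.17, against 12.72 to 13.12 elsewhere) and of the xylem list (17.91, against 18.28 to 18.46), and on that array nas2, DMAS and TOM1 were lowest among the Fe-deficient samples. The part of these lists in the results was not tested. In whole roots, a lower level from fewer expressing cells and one from less RNA per cell cannot be told apart.

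No member transcript passed the test of a difference between the groups. Calls required a minimum change of 1.5-fold together with an adjusted p of 0.05 or less in limma, and 0 of 7 transcripts met this, nor did any with the unadjusted p in its place. Over the entire array 51 transcripts, or 0.0853%, were called, 42 higher and 9 lower in Fe-deficient roots. With the unadjusted p and the same minimum change, 3190 of the 59756 transcripts passed. Both shares are small, so 0 of 7 under either rule tells little about the member genes. The levels of some of these genes differed far more between single arrays than between groups. The library labelled Fe-sufficient 1 held by far the lowest levels of nas2 and TOM1, and the libraries labelled Fe-sufficient 2 and 3 held levels within or above the range of the Fe-deficient ones. Whether each array carries the label of its sample was not tested, and the sign of every group difference rests on the labels. They were kept as given, and results are reported with and without Fe-sufficient 1.

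Among the genes of synthesis, nas2 spread the most over the arrays. Its level was 12.72, 11.82 and 12.92 in Fe-deficient samples 1 to 3 and 8.90, 13.60 and 13.41 in Fe-sufficient samples 1 to 3. The highest and the lowest arrays were thus both labelled Fe-sufficient, and the 3 Fe-deficient arrays fell in the gap between them. The group means were 12.49 ± 0.59 and 11.97 ± 2.66 (SD, n = 3), a difference of 0.51 ± 1.20 (SE) on the log2 scale. This corresponds to a 1.43-fold higher level in Fe-deficient roots with a 95% interval from 0.201 to 10.2, and limma gave an adjusted p of 0.891. The interval leaves room for a change of several fold either way.

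The distance of Fe-sufficient 1 from its own group was far larger than the difference between groups. There nas2 was 24.3-fold lower than the mean of Fe-sufficient 2 and 3 and 12.0-fold lower than the Fe-deficient mean. Only 0.278% of all transcripts had a larger SD over the 6 arrays. All 3 nas2 probes gave the same picture. At transcript position 1193 the probe read 9.60 on Fe-sufficient 1 against 12.78 to 14.24 on the other arrays. At position 1688 it read 8.24 against 11.82 to 13.65, and at position 1852 it read 9.39 against 11.76 to 13.56. Each of these probes stayed above background on all 6 arrays, and their pairwise correlations over the arrays were between 0.98 and 0.99.

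The other nicotianamine synthase gene, NAS, moved in a much narrower range. Its level was 8.89, 9.15 and 8.99 in Fe-deficient samples and 8.17, 9.06 and 8.96 in Fe-sufficient samples 1 to 3. Apart from Fe-sufficient 1, which was lowest here too, the arrays lay close together in the summarised level, between 8.89 and 9.15. The group difference was 0.28 ± 0.25 (SE), 1.22-fold with a 95% interval from 0.804 to 1.84 and an adjusted p of 0.686 by limma. One of its 3 probes gave no usable signal. The probe at position 1817 was below the background limit on all arrays, and the probe at position 1314 read 7.91 on Fe-sufficient 1, below the limit of 7.94 there. The 2 probes with signal gave different group differences, -0.07 at position 619 and 0.48 at position 1314. Their correlation over the arrays was 0.66. At position 619 Fe-sufficient 2 and 3 (9.42 and 9.61) read above the Fe-deficient arrays (8.98 to 9.20).

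DMAS, which completes the synthesis of 2'-deoxymugineic acid, had nearly equal group means in its brighter transcript, T01, at 13.30 ± 0.31 and 13.37 ± 0.59 (SD, n = 3). That transcript read 13.39, 12.96 and 13.57 in Fe-deficient samples and 12.69, 13.80 and 13.61 in Fe-sufficient ones. The order of the arrays was the same as for nas2, but the lowest and highest differed by 2.16-fold where those of nas2 differed by 25.9-fold. The difference between the groups was -0.06 ± 0.32 (SE), with a 95% interval of the fold from 0.569 to 1.61 and an adjusted p of 0.952 (limma).

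The second DMAS transcript, T02, read 9.37, 8.52 and 9.32 in Fe-deficient samples and 9.31, 9.86 and 9.42 in Fe-sufficient ones. Here Fe-deficient 2 was the lowest array and Fe-sufficient 1 lay among the others. Its difference was -0.46 ± 0.27 (SE) with an adjusted p of 0.563 in limma. The probe with the largest difference (-0.86), at position 62, was above background on only 2 arrays. The 3 probes of T02 begin at positions 44, 53 and 62, so they share sequence and are less independent than probes spread along a transcript; their pairwise correlations over the arrays ran from 0.05 to 0.72. For T01 the pairs gave 0.98 for its bright probes at positions 667 and 775, and 0.68 and 0.55 for these with the dim probe at position 1326.

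**Figure D1:**
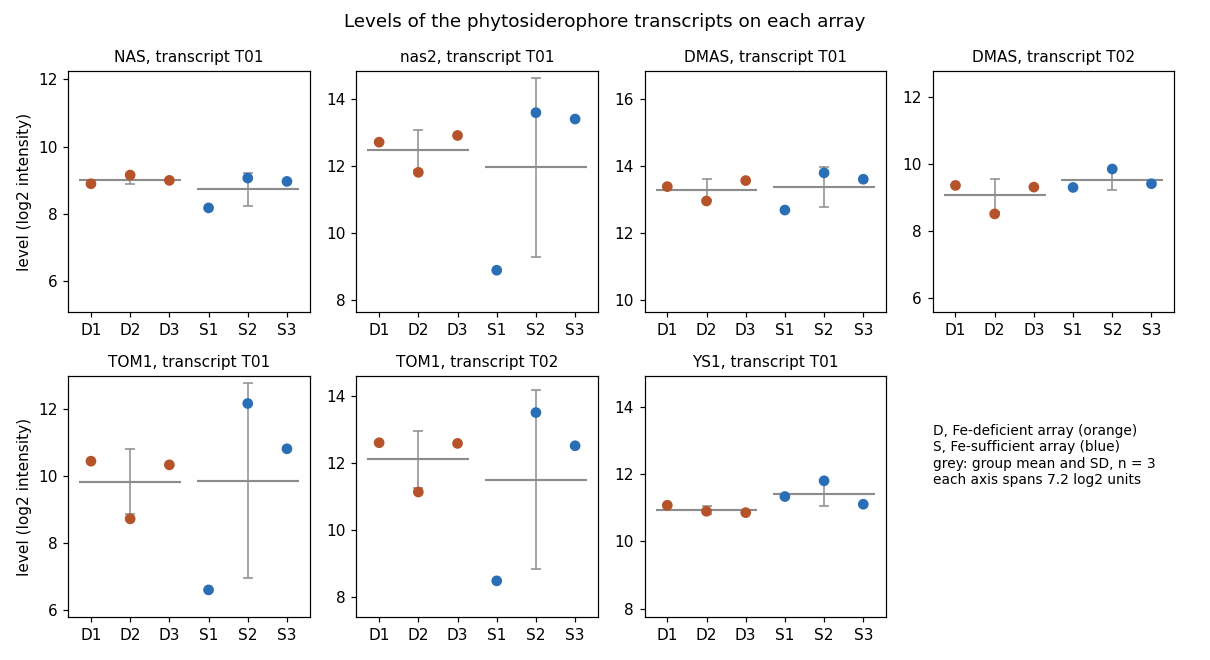
Levels (log2 intensity, vertical axis) of the 7 transcripts on each array (horizontal axis; D, Fe-deficient; S, Fe-sufficient), with group means and SD in grey. nas2 and both TOM1 transcripts drop on Fe-sufficient 1, to 8.90, 6.59 and 8.49, and peak on Fe-sufficient 2, while YS1 stays between 10.86 and 11.81.

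TOM1, the exporter, followed the same course as nas2. Its brighter transcript, T02, had levels of 12.61, 11.14 and 12.59 in Fe-deficient samples and 8.49, 13.51 and 12.52 in Fe-sufficient ones. Fe-sufficient 1 was lowest, Fe-sufficient 2 highest, and Fe-deficient 2 the lowest of the Fe-deficient samples. With means of 12.11 ± 0.84 and 11.51 ± 2.66 (SD, n = 3), the difference was 0.61 ± 1.23 (SE), a fold of 1.52 with a 95% interval from 0.204 to 11.4 and an adjusted p of 0.872 (limma). On Fe-sufficient 1 the level was 23.0-fold below the mean of Fe-sufficient 2 and 3.

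Transcript T01 of TOM1 read 10.43, 8.71 and 10.32 in Fe-deficient samples and 6.59, 12.15 and 10.80 in Fe-sufficient samples. On Fe-sufficient 1 neither of its 2 probes was above background (5.67 and 7.52 against a limit of 7.94), so the level there is only an upper bound. It was above background on the other 5 arrays. The difference between groups was -0.03 ± 1.34 (SE) with an adjusted p of 0.995 in limma, and with 1 value being a bound its sign is not settled. The probes of both transcripts nevertheless ran in parallel, and the 4 that were above background on any array were all lowest on Fe-sufficient 1 and highest on Fe-sufficient 2. The probe at position 531 of T01 read 13.71 on Fe-sufficient 2, 7.52 on Fe-sufficient 1 and 10.90 to 12.80 on the other arrays. The fifth TOM1 probe, at position 600 of T02, was above background on no array.

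**Figure D2:**
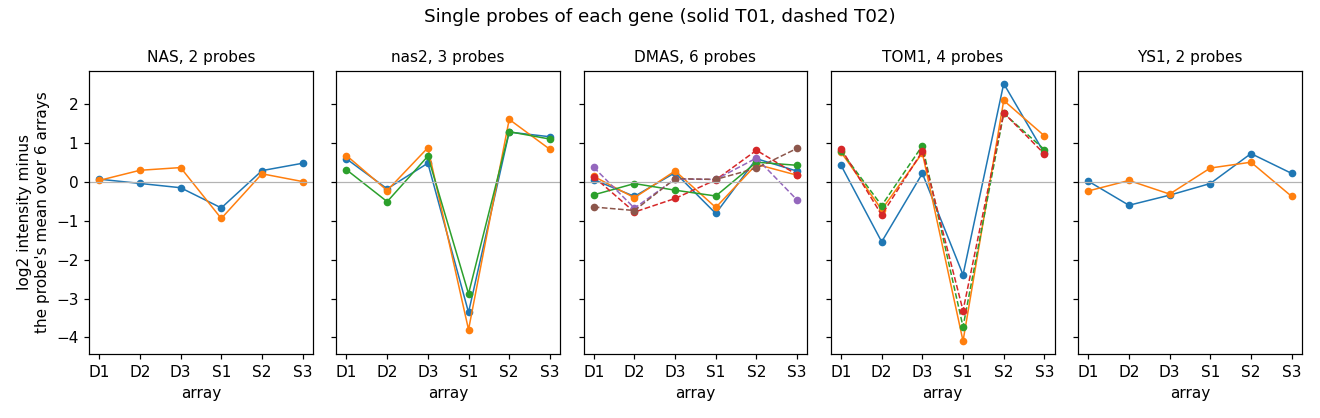
Log2 intensity of single probes minus each probe's mean over the 6 arrays (vertical axis), by array (horizontal axis; D, Fe-deficient; S, Fe-sufficient), for the 17 member probes above background on at least 1 array. The probes of nas2 and TOM1 fall together on S1, whereas those of NAS, DMAS and YS1 stay within about 1 log2 unit of their means.

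YS1, the importer, had lower levels on all Fe-deficient arrays. Its level was 11.08, 10.90 and 10.86 in Fe-deficient samples and 11.34, 11.81 and 11.11 in Fe-sufficient ones, so that all Fe-deficient values were below all Fe-sufficient ones. It was the only one of the 7 transcripts whose groups did not overlap. Over the whole array the groups of 17.4% of transcripts did not overlap, 7.65% with Fe-deficient lower and 9.75% with Fe-deficient higher. The difference was -0.47 ± 0.20 (SE), a fold of 0.723 with a 95% interval from 0.518 to 1.01. It did not pass limma's test (adjusted p = 0.491).

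The probes of YS1 gave this difference unevenly. The probe at position 1104 read 13.30, 12.68 and 12.94 in Fe-deficient samples and 13.24, 14.01 and 13.50 in Fe-sufficient ones. At position 2310 the values were 8.86, 9.13 and 8.78 against 9.45, 9.60 and 8.72. The groups overlapped in either probe, and the correlation of both probes over the arrays was 0.42. In its summarised level YS1 was not low on Fe-sufficient 1, where it read above every Fe-deficient array. The probe at position 1104 alone read 13.24 there, just below the 13.30 of Fe-deficient 1.

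**Figure D3:**
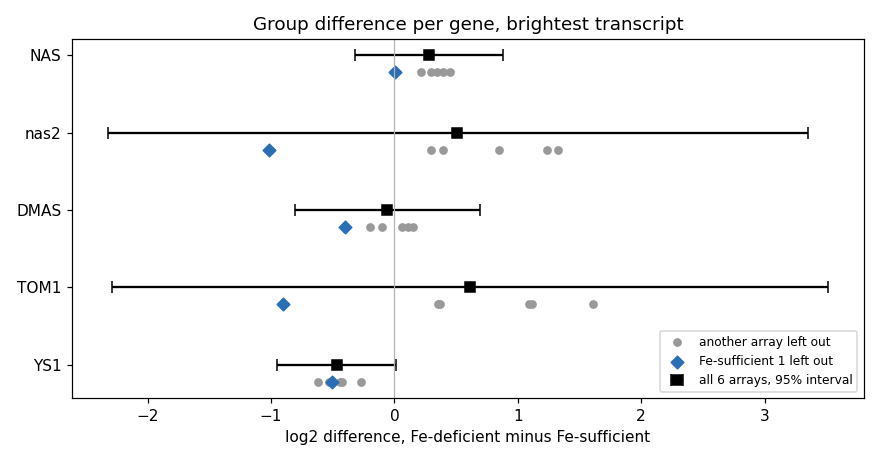
Difference between groups in log2 units (horizontal axis, Fe-deficient minus Fe-sufficient) for the brightest transcript of each gene, with the limma 95% interval (black), and the same with 1 array left out (grey; Fe-sufficient 1 left out in blue). All 5 intervals include 0, and for nas2 and TOM1 leaving out Fe-sufficient 1 moves the value from 0.51 to -1.02 and from 0.61 to -0.90.

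Leaving out Fe-sufficient 1, the direction of nas2 and TOM1 T02 turned. That array was singled out by its low nas2 and TOM1 levels, so leaving it out had to lower their differences. With the remaining 5 arrays nas2 was lower in Fe-deficient roots by a log2 difference of -1.02 ± 0.34 (SE; adjusted p = 0.218 in limma), and TOM1 T02 by -0.90 ± 0.54 (adjusted p = 0.434). TOM1 T01 moved to -1.65 ± 0.64 (adjusted p = 0.266) and DMAS T01 to -0.40 ± 0.22 (adjusted p = 0.396), while NAS was at 0.00 ± 0.15. YS1 remained lower, at -0.51 ± 0.24 (adjusted p = 0.333). In this smaller comparison 0 of 7 member transcripts were called, where 1.83% of all transcripts were. The groups of nas2, both DMAS transcripts, TOM1 T01 and YS1 did not overlap, each with Fe-deficient lower, against 18.0% of all transcripts in that direction and 39.5% in both. For nas2 and TOM1 the array was singled out on these same values, so their part in this count is not independent evidence. Leaving out Fe-sufficient 2 instead moved nas2 to 1.327 and TOM1 T02 to 1.607.

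A drop of this size on a single array was rare. Counting transcripts that lay at least 2 log2 units below the lowest of the other 5 arrays gave 30 on Fe-sufficient 1 (0.0502% of 59756), 40 on Fe-deficient 2, 3 on Fe-deficient 3, 1 on Fe-sufficient 3 and 0 on Fe-deficient 1 and on Fe-sufficient 2. In the upward direction Fe-deficient 2 stood apart, with 277 transcripts at least 2 log2 units above all other arrays where the others had 16 to 84. The 3 transcripts of nas2 and TOM1 were among the 30. By the size of the drop below the next array, nas2 ranked 4 with 2.91 log2 units, TOM1 T02 ranked 13 with 2.65 and TOM1 T01 ranked 28 with 2.12, a gap that is not exact since T01 was not above background there. For NAS the same gap was 0.72 and for DMAS T01 it was 0.27. In all, 5 of 7 member transcripts were lowest on Fe-sufficient 1 and 6 of 7 highest on Fe-sufficient 2, where of all transcripts 16.2% were lowest and 15.8% highest.

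Judged by each gene's brightest transcript, nas2, DMAS (T01) and TOM1 (T02) rose and fell together over single arrays. The other transcripts were not part of these correlations. DMAS T02 took another course, with its lowest level on Fe-deficient 2 (8.52) and 9.31 on Fe-sufficient 1. Over the 6 arrays nas2 and DMAS had a Pearson r of 0.93 (exact permutation p = 0.00139, adjusted over the 10 pairs 0.0139) and a Spearman rho of 1.0 (exact permutation p = 0.00278, adjusted 0.0278), so that they put all arrays in one order. For nas2 and TOM1 r was 0.98 (exact permutation p = 0.00833, adjusted 0.0278) and rho 0.77 (adjusted exact permutation p = 0.343). DMAS and TOM1 had an r of 0.94 (exact permutation p = 0.00833, adjusted 0.0278) and the same rho of 0.77. These 3 of 10 pairs passed on r, and of them only nas2 with DMAS passed on rho.

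How far these relations rest on the extreme arrays was examined in a few ways. The 2 arrays farthest from the median of the first gene were Fe-deficient 2 and Fe-sufficient 1 in every pair. Without them r was 0.91 for nas2 and DMAS, 0.79 for DMAS and TOM1 and 0.65 for nas2 and TOM1, over 4 arrays that allow no useful test. With deviations from the group means in place of levels, r was 0.96, 0.98 and 0.98, respectively, but the permutations within groups are few and the adjusted p rose to 0.185 for each of these 3 pairs. Without Fe-sufficient 1 alone, r was 0.98 for nas2 and DMAS, 0.91 for nas2 and TOM1 and 0.95 for DMAS and TOM1, with adjusted exact permutation p of 0.0833, 0.167 and 0.167.

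The pairs with NAS or YS1 did not pass. NAS had an r of 0.86 with nas2, 0.83 with TOM1 and 0.64 with DMAS (adjusted exact permutation p = 0.255 for each). Leaving out Fe-sufficient 1 turned r to -0.44, -0.47 and -0.43, and leaving out Fe-deficient 2 as well turned it back to 0.77, 0.78 and 0.96, so the sign depended on single arrays. YS1 had an r between -0.19 and 0.26 with the other 4 genes (adjusted exact permutation p from 0.871 to 0.963). This low correlation rested on Fe-sufficient 1 as well, where YS1 had its second-highest level and nas2 its lowest. Without that array r of YS1 was 0.67 with nas2, 0.65 with DMAS and 0.75 with TOM1 (adjusted exact permutation p = 0.472 for each), and without Fe-deficient 2 in addition it was 0.74, 0.76 and 0.95.

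**Figure D4:**
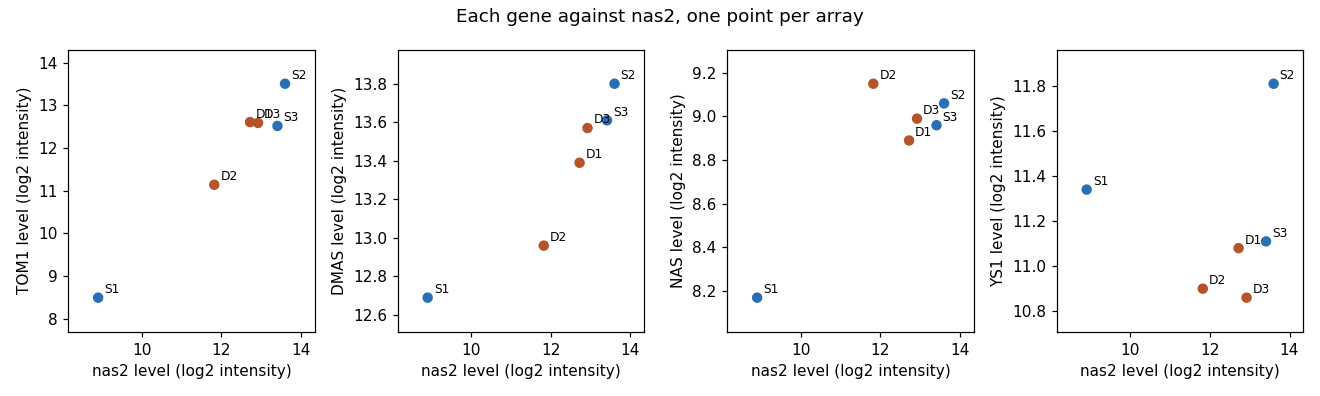
Level of the brightest transcripts of TOM1, DMAS, NAS and YS1 (vertical axes, log2 intensity) against that of nas2 (horizontal axis, log2 intensity), with 1 point per array (D, Fe-deficient, orange; S, Fe-sufficient, blue). TOM1 and DMAS climb with nas2 from S1 through D2 to S2, with r of 0.98 and 0.93, and YS1 does not, with an r of 0.03.

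The wider pathway was taken as all array genes with a RefSeq name or synonym of the NAS, NAAT, DMAS, YS, YSL or TOM type, plus NAS and a gene that the study's list of changed transcripts describes as similar to Arabidopsis YSL7. Of its 12 genes 11 were measured and nas1 (GRMZM2G385200) had no rows. Only 2539 of 39219 array genes had an informative name, so unnamed genes of these types may be missing from the list. In limma 0 of the 11 measured genes were called higher and 0 lower, where 0.0853% of all transcripts were called. With so small a share, 0 of 11 tells little about the list. The median difference of the 11 genes was 0.12 log2 units, beside 0.01 for all transcripts. Apart from the 5 members the list held naat1 and 5 genes of the YSL type, which in rice and Arabidopsis include carriers of metals bound to nicotianamine.

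The enzyme between nicotianamine and DMAS, naat1 (GRMZM2G096958), read 12.63, 12.45 and 12.45 in Fe-deficient samples and 11.84, 12.83 and 12.65 in Fe-sufficient ones. It was lowest on Fe-sufficient 1 and highest on Fe-sufficient 2, as were nas2, DMAS T01 and TOM1, with a range of 2.0-fold. Its group difference was 0.07 ± 0.27 (SE; adjusted p = 0.935 in limma). Judged by brightest transcripts, all 5 measured list genes of synthesis and export were thus lowest on Fe-sufficient 1. By the same measure none of the 6 genes of the YS and YSL type was. Of all transcripts 16.2% were lowest on that array. The dimmer transcripts did not all follow this split. DMAS T02 was lowest on Fe-deficient 2, at 8.52, and read 9.31 on Fe-sufficient 1. The dimmer transcript of ysl14A, T02, was lowest on Fe-sufficient 1, at 8.32 against 8.56 to 9.81 elsewhere.

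Of the YSL genes, ysl12 (GRMZM5G893444) took the opposite course to TOM1. It read 12.64, 14.30 and 12.09 in Fe-deficient samples and 13.32, 12.19 and 12.10 in Fe-sufficient ones, so its high arrays were Fe-deficient 2 and Fe-sufficient 1, where TOM1 was low. Its difference of 0.48 ± 0.60 (SE) had an adjusted p of 0.78 in limma. The T01 transcript of ysl14A (GRMZM2G368398) was lowest on Fe-deficient 2, at 12.74, and between 13.42 and 13.81 elsewhere. For ysl11 (GRMZM5G812538) and ysl17 (GRMZM2G049238) the differences were 0.12 each, with ysl11 above background on 4 of 6 arrays.

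The gene similar to Arabidopsis YSL7 (GRMZM2G120922) had the lowest p of the list. It read 9.04, 9.45 and 9.47 in Fe-deficient samples and 8.60, 8.53 and 8.98 in Fe-sufficient samples, and the groups did not overlap. Its difference of 0.62 ± 0.19 (SE), a fold of 1.53 with a 95% interval from 1.12 to 2.10, had an adjusted p of 0.445 in limma, and it was the only list gene with an unadjusted p under 0.05. The study picked this gene on the same samples, so its direction is not independent evidence. With YS1 it made 2 of 11 genes whose groups did not overlap, one in each direction, a share near the 17.4% of all transcripts.

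**Figure D5:**
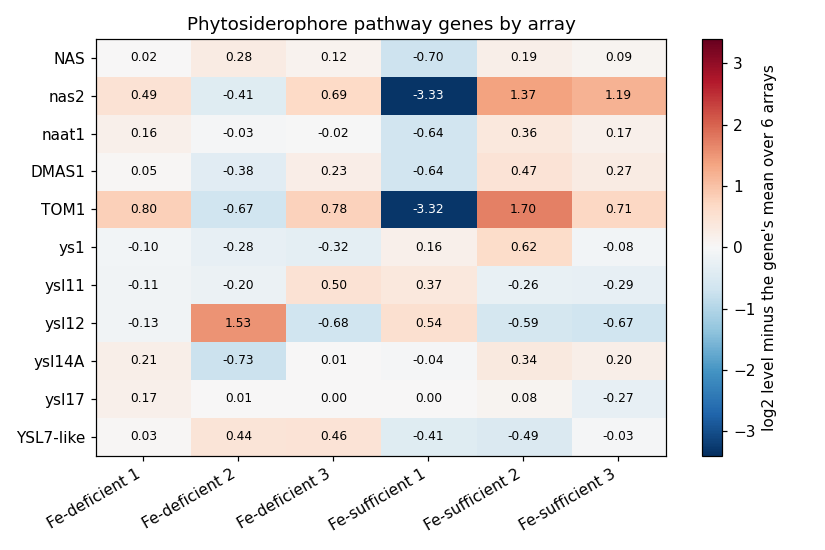
Level of each pathway gene's brightest transcript on each array minus its mean over the 6 arrays (colour and printed value, log2 units), with genes in rows and arrays in columns. On Fe-sufficient 1 the value is -3.33 for nas2, -3.32 for TOM1 and -0.70 to -0.64 for NAS, DMAS1 and naat1, and ysl12 reaches 1.53 on Fe-deficient 2.

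The pool searched for like genes was 2245 genes with an informative RefSeq name that were above background on at least 3 arrays. Among them, genes were sought whose course over the 6 arrays was most like that of each member's brightest transcript. They are given as a description, since with 6 arrays shared by all genes high correlations are common: for each member other than YS1, 8 to 10 named genes reached an r of 0.95, and for YS1 0 did. Among all 33600 genes, named or not, the counts were 102 to 164 and 84. The 3 most like nas2 were GPDH1 (r = 0.992), TPS8, a terpene synthase gene (0.978), and a gene named Laccase-13 (GRMZM2G132169; 0.976), laccases being oxidases of phenolic compounds. Their ranges over the arrays were 1.62, 3.26 and 2.75 log2 units, less than the 4.70 of nas2. GPDH1 and TPS8 also led the genes most like TOM1 (0.982 and 0.969), ahead of the gene named nuc (0.967).

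For DMAS the 3 most like genes were mpao1, which encodes a polyamine oxidase (r = 0.997), mrpi1 (0.987) and phytase1, which releases phosphate from phytate (0.982). NAS was most like ae1, a starch branching enzyme gene (0.989), pep7, a phosphoenolpyruvate carboxylase gene (0.987), and PyrR (0.972). For YS1 they were TAB2 (0.949), DBP4 (0.943) and FEA4, a transcription factor gene (0.939). No like gene stood in the lists of more than one member except GPDH1 and TPS8, shared by nas2 and TOM1. Over that wider pool, 2 gene models picked after their values were seen ran even closer to nas2 and over nearly its whole range. GRMZM2G124785 had an r of 0.999 and fell to 9.15 on Fe-sufficient 1 from 11.90 to 13.57 elsewhere. GRMZM2G704488, which matches several RefSeq genes, had an r of 0.997 and fell to 9.10 from 11.96 to 13.61. Neither had an informative name here. Whether they are copies of nas2, or whether their probes and those of nas2 bind the same transcripts, was not tested, so they are not independent evidence.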

How the data were processed

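Root RNA of 6 samples (3 Fe-deficient and 3 Fe-sufficient) was measured on 6 Cy3 arrays with 139000 transcript probes and 1663 random-sequence probes. The deposited values are linear probe intensities that the authors had already quantile-normalized between arrays. The study's methods name quantile normalization with RMA. A background subtraction before deposit is neither named nor denied there. The deposited value table equals the array files. Normalization forces one distribution on all arrays, so a change in most genes would not be seen.

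Intensities were put on a log2 scale, summarised per transcript by median polish and compared with lmFit and eBayes of limma 3.58.1 (R 4.3.3) without covariate. Benjamini-Hochberg adjustment covered all 59756 transcripts. A gene's brightest transcript is the one with the highest mean. Pearson and Spearman correlations of the brightest transcripts of the 5 genes were tested by exact two-sided permutation (scipy 1.17.1, Python 3.11.15). The number of arrays limits the precision.

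Every transcript of the 5 genes is named. Further genes were named by the pathway list and as the 3 named genes most like each member. Members and lists were chosen with earlier results of these data known. RefSeq names (assembly Zm-B73-REFERENCE-NAM-5.0; 18171 of 39219 genes matched 1 entry, 519 several, and 2539 had an informative name) were used for names only, and most stood among the synonyms. The fit was tested on simulated data. Other background corrections, normalizations, summaries, filters, weights, the replicate number as a block and leaving out each array were tried.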

Additional observations from a re-analysis of the deposited data

How the results depend on the processing

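Member calls did not depend on the processing: 0 member transcripts were called under every alternative run. With array weights nas2 changed sign to -0.226 and TOM1 T02 to -0.002, and with RMA background correction TOM1 T01 (GRMZM2G063306_T01) changed sign to 0.164. With 1 array left out, the log2 difference ranged from 0.001 to 0.448 for NAS, -1.02 to 1.327 for nas2, -0.401 to 0.154 for DMAS, -0.903 to 1.607 for TOM1 T02, -1.654 to 1.123 for TOM1 T01 and -0.623 to -0.274 for YS1. DMAS turned positive without Fe-deficient 2 (0.11), Fe-sufficient 2 (0.154) or Fe-sufficient 3 (0.057); nas2 and TOM1 T02 turned without Fe-sufficient 1; TOM1 T01 turned without Fe-deficient 2 (0.529), Fe-sufficient 2 (1.123) or Fe-sufficient 3 (0.45). The cause was not tested.

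Over all transcripts the count of 51 calls became 28 with RMA background correction, 165 with array weights, 0 with the replicate number as a block, 30 with 1 transcript per gene, 3190 with unadjusted p, 32 with only probes above background on at least 1 array (chosen after seeing the data) and 2 to 1096 with 1 array left out, the highest without Fe-sufficient 1. Samples of the same number did not deviate together (r of -0.12, -0.0082 and 0.07), so the numbers were not taken as pairs, and the block changed no member's call. The count of correlated pairs fell from 3 to 0 with deviations from the group means and without Fe-sufficient 1 (added after seeing the data). Deviations from group means turned r of NAS and YS1 to 0.21. Without Fe-sufficient 1, r of NAS turned to -0.44 with nas2, -0.43 with DMAS, -0.47 with TOM1 and 0.09 with YS1.

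With 3 arrays a group and SDs of 2.66 in the Fe-sufficient group, differences of several fold in nas2 and TOM1 were not detectable. The dim probes of NAS, of both DMAS transcripts and of TOM1 T02 lie near or under the background limit. The dim probe of TOM1 T01, at position 46, was above it on 4 arrays.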
